A study of Mus musculus with 20 samples.

Results

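The glucocorticoid receptor and a set of its target genes, 10 genes in all, were followed through RNA sequencing of the hypothalamus of male C57BL/6J mice. They are Nr3c1, which encodes the glucocorticoid receptor, and 9 genes described as its targets (Tsc22d3, Fkbp5, Sgk1, Zbtb16, Sult1a1, Cdkn1a, Ddit4, Pdk4 and Hif3a), chosen by symbol and matched to the Ensembl identifiers of the deposited table. All 10 were found among its 54532 genes, and all 10 passed the filter on low counts in every comparison. The 20 libraries form 5 groups. Acute Gly-Low (4 libraries) and acute control (5 libraries) are mice of 4 months after 1 week on a glycation-lowering (Gly-Low) or control diet. Old Gly-Low (3 libraries) and old control (4 libraries) are mice of 25 months after 5 months on these diets. Young control (4 libraries) is mice of 3 months after 1 week on the control diet. The labels name no genetic change in any group, and nothing in them says that the libraries come from separate animals, so p-values measure the spread between samples, which may be technical.

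Glucocorticoids, chiefly corticosterone in mice, are steroid hormones released by the adrenal gland in stress and with the daily rhythm. In the resting cell the receptor is held in the cytoplasm by chaperones. Once bound by hormone it enters the nucleus, binds DNA as a dimer at palindromic response elements and changes transcription of nearby genes. In the hypothalamus the receptor takes part in the feedback that lowers release of corticotropin-releasing hormone. Most of the listed targets also respond to other signals: Cdkn1a to p53, Ddit4 and Pdk4 to stress and fasting, and Hif3a to low oxygen.

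To show what the start regions of these genes hold, promoter windows of RefSeq (build GRCm38.p6, 250 bases before to 50 bases after an annotated start) were searched on both strands for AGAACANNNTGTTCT, the palindromic response element, and for either of its 6-base arms, AGAACA and TGTTCT. Windows were given for 8 of the 10 genes, 16 in all. Of all 32851 windows in the table, 3 (0.00913%) held the palindrome, and 1 of these belongs to Sgk1. An arm was present in 19.0% of all windows, counting those inside a palindrome. Among the genes searched, Sgk1 had an arm in 3 of its 6 windows, Sult1a1 had 2 arms in its single window and Tsc22d3 had 1 arm in 1 of its 3 windows, while the windows of Cdkn1a, Ddit4, Fkbp5, Hif3a and Pdk4 held neither form. The 3 sequences below are those of the palindrome and of the target genes with the largest changes on the acute diet, with matches in capitals, written 5′ to 3′ on the strand of the gene. They are Sgk1 chr10:21993640-21993939 (plus strand), Sult1a1 chr7:126676369-126676668 (minus strand) and Tsc22d3 chrX:140600473-140600772 (minus strand).
Sgk1: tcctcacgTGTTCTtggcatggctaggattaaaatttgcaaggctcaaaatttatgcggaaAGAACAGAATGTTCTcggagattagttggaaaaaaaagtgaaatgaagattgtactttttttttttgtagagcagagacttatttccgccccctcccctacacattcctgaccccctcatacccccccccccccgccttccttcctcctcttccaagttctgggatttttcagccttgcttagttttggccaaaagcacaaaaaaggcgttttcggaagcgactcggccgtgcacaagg
Sult1a1: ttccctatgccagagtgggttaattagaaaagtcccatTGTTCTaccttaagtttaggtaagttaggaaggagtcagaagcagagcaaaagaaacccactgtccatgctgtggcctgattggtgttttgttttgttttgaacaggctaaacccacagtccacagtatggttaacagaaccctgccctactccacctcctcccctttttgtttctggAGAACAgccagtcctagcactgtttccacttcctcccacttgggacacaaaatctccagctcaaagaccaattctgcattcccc
Tsc22d3: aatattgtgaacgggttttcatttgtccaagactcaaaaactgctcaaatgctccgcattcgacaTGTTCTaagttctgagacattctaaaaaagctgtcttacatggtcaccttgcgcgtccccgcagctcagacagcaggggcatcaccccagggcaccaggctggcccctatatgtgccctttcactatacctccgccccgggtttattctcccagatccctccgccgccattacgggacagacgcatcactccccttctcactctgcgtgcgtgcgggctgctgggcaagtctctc
The Sgk1 palindrome (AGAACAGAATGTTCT) lies at chr10:21993701-21993715, 189 to 175 bases before the start at 21993890 and 951 bases before the next annotated start of the gene at 21994666. A match is a description of the letters and not a site of binding, and a window without one says nothing of the receptor at that gene.

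Levels were compared between genes as CPM per kilobase of median transcript length, averaged over the 20 libraries. CPM here and below are counts scaled to library sizes adjusted by TMM, a scaling between libraries, and not to the library totals. They can therefore differ from a gene's share of the total: Nr3c1 in acute Gly-Low 1, with 2553 of 21257077 counts, is given as 155 CPM. Tsc22d3, which encodes the glucocorticoid-induced leucine zipper, was the most abundant at 107, and Hif3a the least at 0.581. Between them came Sgk1 (43.4), Nr3c1 (30.5), Ddit4 (25.6), Sult1a1 (19.9), Fkbp5 (9.61), Cdkn1a (8.63), Pdk4 (3.26) and Zbtb16 (1.37). The ranges over libraries of each neighbouring pair in this order overlapped, so the ranges alone do not set neighbours apart. Compared inside single libraries, Tsc22d3 stood above Sgk1 in every library, most narrowly in acute control 4 (80.0 against 79.2 CPM per kilobase). Tsc22d3 ran from 41.0 to 228 and Sgk1 from 10.5 to 88.8 CPM per kilobase.

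**Figure D1:**
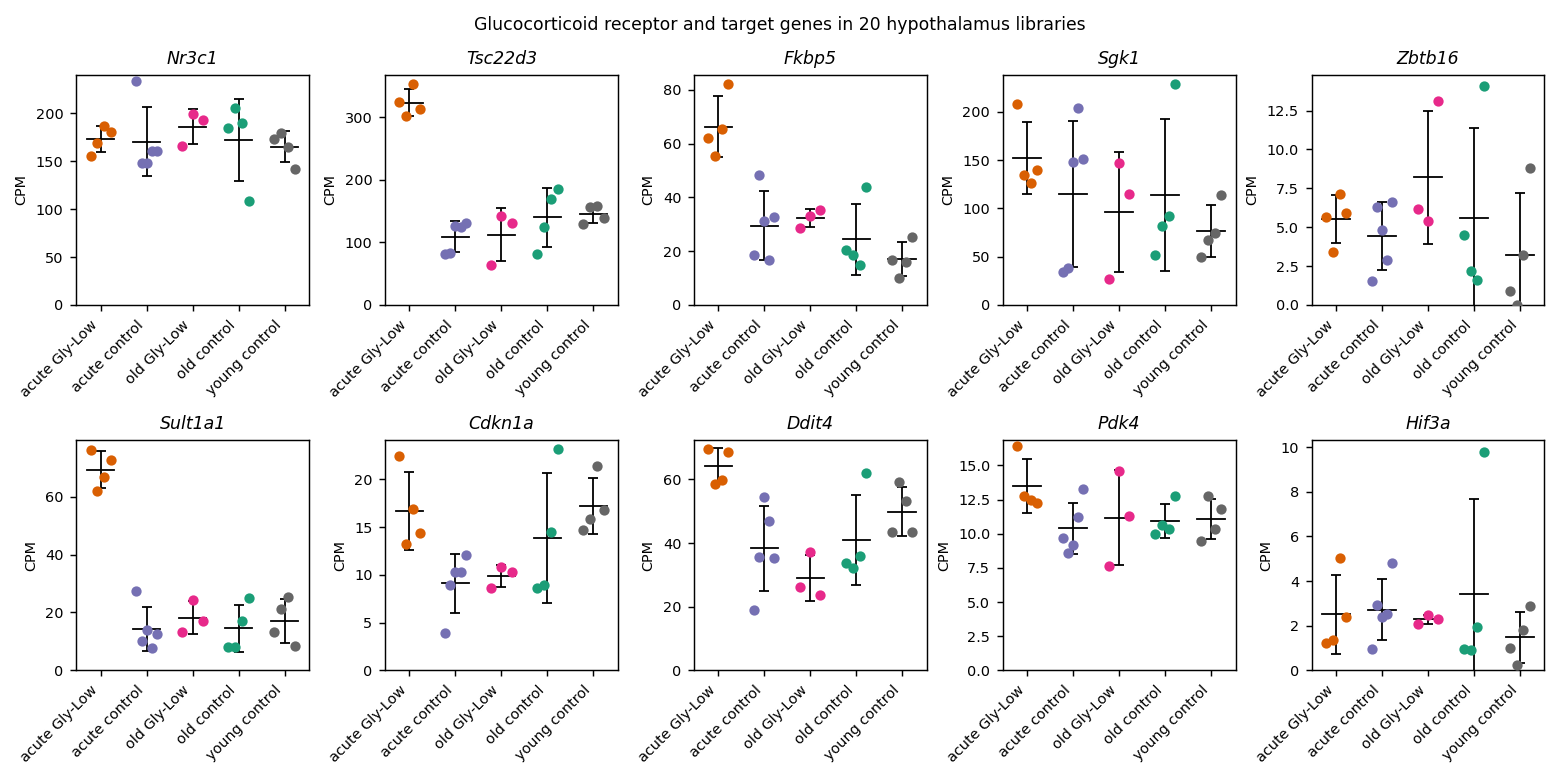
Level of each gene in CPM (vertical axis, from 0) in the 20 libraries, by group. Points are libraries, horizontal lines group means and bars SD (ending at 0 where they would pass below it); in Tsc22d3, Fkbp5, Sult1a1, Cdkn1a and Ddit4 the acute Gly-Low points lie above all acute control points.

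The libraries differed in make-up as well as in these genes. Total counts ran from 15848372 to 27399753. All 14 hypothalamic marker genes were detected in every library. Transcripts of the mitochondrial genome took 17.0% to 23.3% of counts in acute Gly-Low and 5.35% to 9.11% in acute control, against 4.94% to 17.2% in the other 11 libraries. The length slope of a library, the slope of its log2 CPM deviation over log2 transcript length, was −0.43 to −0.23 in acute Gly-Low and 0.14 to 0.23 in acute control. A negative slope means that short transcripts took more of the counts than in the average library. The summed level of 8 pituitary markers, led by Gh and Prl, was 43.7 to 222 CPM in acute Gly-Low and 8.80 to 61190 CPM in acute control, where replicates 2, 3 and 5 held 61190, 3691 and 32500 CPM. Among the defining pituitary factors, Pitx1 was at 0 in 12 libraries and Pou1f1 in 7. Summed neuronal markers (8 genes) were at 3239 to 3720 CPM in acute Gly-Low and 4672 to 5815 CPM in acute control, summed meningeal and fibroblast markers (9 genes) at 208 to 394 CPM in acute Gly-Low and 70.4 to 179 CPM in acute control, and summed erythrocyte markers (5 genes) at 556 to 1507 CPM in acute Gly-Low and 72.8 to 323 CPM in acute control. Of these lists, 0 neuronal genes were higher and 5 lower, 6 meningeal genes higher and 0 lower, and 5 erythrocyte genes higher and 0 lower in acute Gly-Low, where 58.3% of all genes tested passed. Summed endothelial markers were at 95.4 to 117 CPM in acute Gly-Low and 126 to 197 CPM in acute control (1 of 9 higher and 7 lower), and summed oligodendrocyte precursor markers at 117 to 155 CPM in acute Gly-Low and 268 to 336 CPM in acute control (0 of 6 higher and 4 lower). Summed tanycyte and ependymal markers were at 79.1 to 138 CPM in acute Gly-Low and 32.2 to 41.5 CPM in acute control (3 of 6 higher and 0 lower). The part that these differences had in the results was not tested, except where a fit without the libraries concerned or with a term for transcript length is given beside a result. In bulk tissue, fewer cells of a type and less RNA per cell cannot be told apart. The marker sums also carry the shift with transcript length, for which they were not corrected, so a lower sum does not show fewer cells.

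In the acute comparison, mice fed Gly-Low for 1 week were set against mice of the same age fed the control diet. Of the 10 genes, 5 were higher in acute Gly-Low and 0 were lower (Benjamini-Hochberg adjusted p under 0.05 by edgeR's quasi-likelihood test over 17161 genes). Of all genes tested, 58.3% passed in either direction and 27.8% passed as higher. The median log2 fold change of the 10 genes was 0.59, against −0.07 over all genes tested. The genes that rose were Sult1a1, Tsc22d3, Fkbp5, Cdkn1a and Ddit4, and in each the acute Gly-Low and acute control libraries did not overlap.

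Nr3c1 (ENSMUSG00000024431, chromosome 18, 39410545 to 39519421), the receptor itself, did not pass. Its level was 155, 169, 187 and 181 CPM in acute Gly-Low, and 234, 148, 149, 161 and 161 CPM in acute control. The groups overlapped, and acute control 1 stood above every other library. The log2 fold change was 0.03 ± 0.15 (SE) with an adjusted p of 0.866. With a per-library offset for transcript length it was 0.74 with an adjusted p of 0.00184, and over 20 alternative settings the adjusted p ran from 0.00184 to 0.996. Nr3c1 has the longest transcripts of the 10 genes, with a median of 5658 bases.

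Tsc22d3 (ENSMUSG00000031431, chromosome X, 140539528 to 140600659) restrains inflammatory signalling and is widely used as a readout of the receptor. It stood at 324, 303, 354 and 314 CPM in acute Gly-Low, and at 81.3, 83.5, 127, 124 and 131 CPM in acute control. The lowest acute Gly-Low library lay far above the highest acute control, with a log2 fold change of 1.58 ± 0.16 (adjusted p = 1.8e-06). It passed under all 20 alternatives, with log2 fold changes from 1.17 to 1.69. Without acute controls 2, 3 and 5 it was 1.63.

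Fkbp5 (ENSMUSG00000024222, chromosome 17, 28399094 to 28517527) encodes a co-chaperone that lowers the affinity of the receptor for hormone, a short negative feedback loop. Its level was 62.1, 55.4, 65.5 and 82.1 CPM in acute Gly-Low, against 18.5, 48.4, 31.1, 16.6 and 32.6 CPM in acute control. The lowest acute Gly-Low library stood above the highest acute control, replicate 2. The log2 fold change was 1.19 ± 0.25 (adjusted p = 0.000896), and it passed under all 20 alternatives at 1.05 to 2.20. At a median of 3514.5 bases its transcripts are longer than those of the other genes that rose, and with the length offset the log2 fold change was 1.58. The annotation places 4 other genes over Fkbp5, 2 of them on the other strand, and reads of the strands cannot be told apart in these non-directional libraries.

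Sult1a1 (ENSMUSG00000030711, chromosome 7, 126672865 to 126676432) encodes a sulfotransferase that conjugates phenols and catechols. It had 76.2, 62.0, 66.9 and 72.5 CPM in acute Gly-Low, and 27.3, 10.1, 13.8, 7.59 and 12.5 CPM in acute control. The groups stood far apart, and acute control 1 was the highest of its group. This was the largest fold among the 10 genes, with a log2 fold change of 2.30 ± 0.28 (adjusted p = 8.11e-06). It was 1.73 with the length offset, and in a fit of all 20 libraries that adds their length slopes as a covariate it was 1.33 and did not pass (adjusted p = 0.119; 3.1e-14 to 0.119 over 20 alternatives). Sgf29 lies over Sult1a1 on the other strand.

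Cdkn1a (ENSMUSG00000023067, chromosome 17, 29090976 to 29100727), the p21 inhibitor of cyclin-dependent kinases, had 22.4, 13.2, 16.9 and 14.4 CPM in acute Gly-Low and 3.90, 8.89, 10.3, 10.3 and 12.1 CPM in acute control. The log2 fold change was 0.89 ± 0.27 (adjusted p = 0.0102). Ddit4 (ENSMUSG00000020108, chromosome 10, 59949669 to 59951834), an inhibitor of mTOR complex 1 signalling, had 69.5, 58.6, 59.95 and 68.8 CPM in acute Gly-Low and 19.0, 35.8, 54.6, 46.9 and 35.2 CPM in acute control. Its log2 fold change was 0.76 ± 0.22 (adjusted p = 0.00764). For both genes the lowest acute Gly-Low library was only slightly above the highest acute control, and acute control 1 was the lowest. Both calls were lost with the length offset, Cdkn1a at 0.47 (adjusted p = 0.149; 0.00153 to 0.261 over 20 alternatives) and Ddit4 at 0.52 (adjusted p = 0.0525; 0.00119 to 0.323), and with the length slope as a covariate. The annotation has 1 gene over Cdkn1a on the other strand.

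Sgk1 (ENSMUSG00000019970, chromosome 10, 21882184 to 21999903), a kinase that regulates ion channels and transporters and the gene with the palindrome shown above, did not pass. It had 208, 134, 127 and 140 CPM in acute Gly-Low, and 34.7, 38.0, 148, 204 and 151 CPM in acute control. Acute controls 1 and 2 stood low, and acute controls 3, 4 and 5 lay within the range of acute Gly-Low. The log2 fold change was 0.42 ± 0.42 (adjusted p = 0.41), and none of the 20 alternatives passed.

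Pdk4 (ENSMUSG00000019577, chromosome 6, 5483351 to 5496309), which switches cells from glucose to fat oxidation by inhibiting pyruvate dehydrogenase, had 16.4, 12.8, 12.5 and 12.2 CPM in acute Gly-Low and 9.70, 8.59, 9.15, 11.2 and 13.3 CPM in acute control. The groups overlapped through acute control 5 alone, and the log2 fold change was 0.39 ± 0.18 (adjusted p = 0.0845). Without acute control 5 it passed at 0.49 (adjusted p = 0.0382), by DESeq2 at 0.42 (adjusted p just under 0.05), with the length offset at 0.78 (adjusted p = 0.00281), and over the 20 alternatives the adjusted p ran from 0.00281 to 0.688. Zbtb16 (ENSMUSG00000066687, chromosome 9, 48654297 to 48836222), a zinc finger repressor, averaged 5.53 ± 1.57 CPM (SD, n = 4) in acute Gly-Low and 4.44 ± 2.19 CPM (SD, n = 5) in acute control, a log2 fold change of 0.33 ± 0.36 (adjusted p = 0.453). It passed at 1.28 without acute controls 2, 3 and 5 (adjusted p = 0.0219) and at 3.61 with the length slope covariate (adjusted p = 0.0157), and the adjusted p over the 20 alternatives ran from 0.0157 to 0.762. The length slopes of acute Gly-Low and acute control did not overlap, so the 3.61 is extrapolated across the gap between them. Zbtb16 itself moved with the slope within groups (r = 0.71), and that fit includes young control 2, where its count was 0. Hif3a (ENSMUSG00000004328, chromosome 7, 17031507 to 17062427), a member of the hypoxia-inducible factor family, averaged 2.51 ± 1.77 CPM in acute Gly-Low and 2.72 ± 1.39 CPM in acute control. Its log2 fold change was −0.10 ± 0.47 (adjusted p = 0.867). The libraries of the groups overlapped for Zbtb16 and Hif3a. A gene lies over Hif3a on the other strand.

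**Figure D2:**
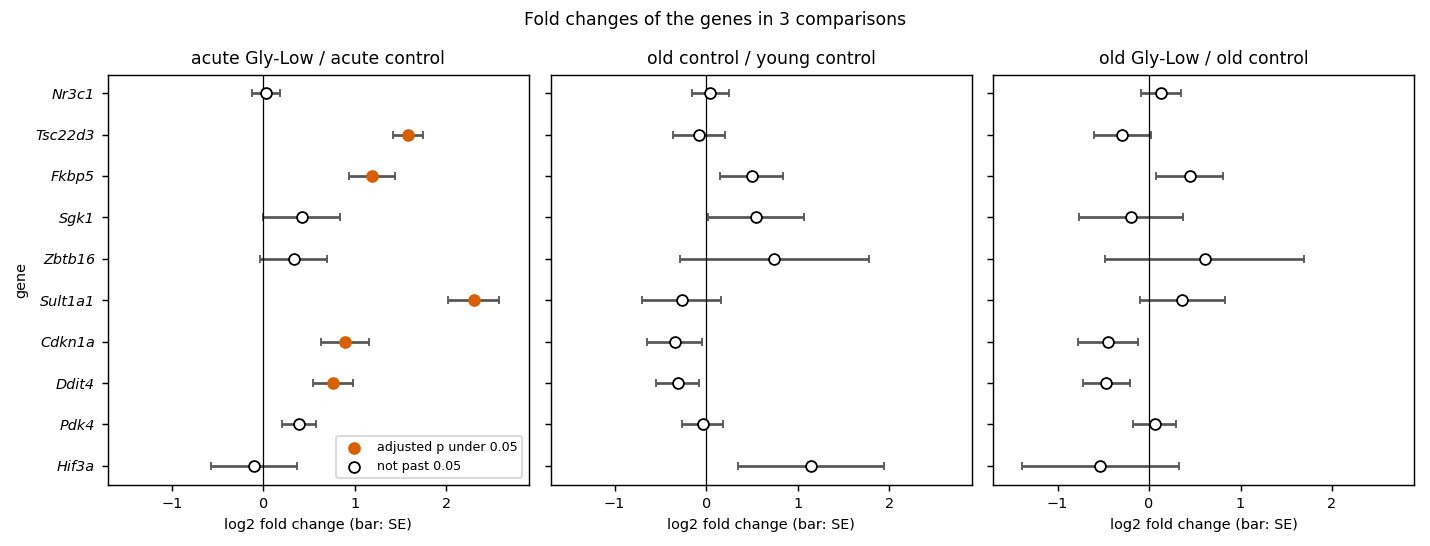
Log2 fold change with its SE (horizontal axis) of each gene in the acute, age and old diet comparisons, the group named first in each heading being the numerator. Filled points passed an adjusted p of 0.05: there are 5 in the acute comparison and 0 in the others.

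Transcript length moved with the acute folds. Sult1a1 (1329.5 bases), Cdkn1a (1542.5), Tsc22d3 (1552) and Ddit4 (1755) have the shortest transcripts of the 10 genes and were among the 5 that rose. Over all genes, those of 56 to 1334 bases had a median log2 fold change of 1.03 and 61.6% of them were higher, and those of 1334 to 2117 bases had a median of 0.26 and 36.0% were higher. In the bin of 2966 to 4220.4 bases, which holds Fkbp5, the median was −0.42, 13.2% were higher and the 90th percentile of the log2 fold change was 0.67. Fkbp5 at 1.19 lay above the 90th percentile of its bin. Sult1a1 at 2.30 lay above that of the shortest bin (2.16) and Tsc22d3 at 1.58 above that of the next (1.26), while Cdkn1a and Ddit4, in the same bin as Tsc22d3, lay below it.

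**Figure D3:**
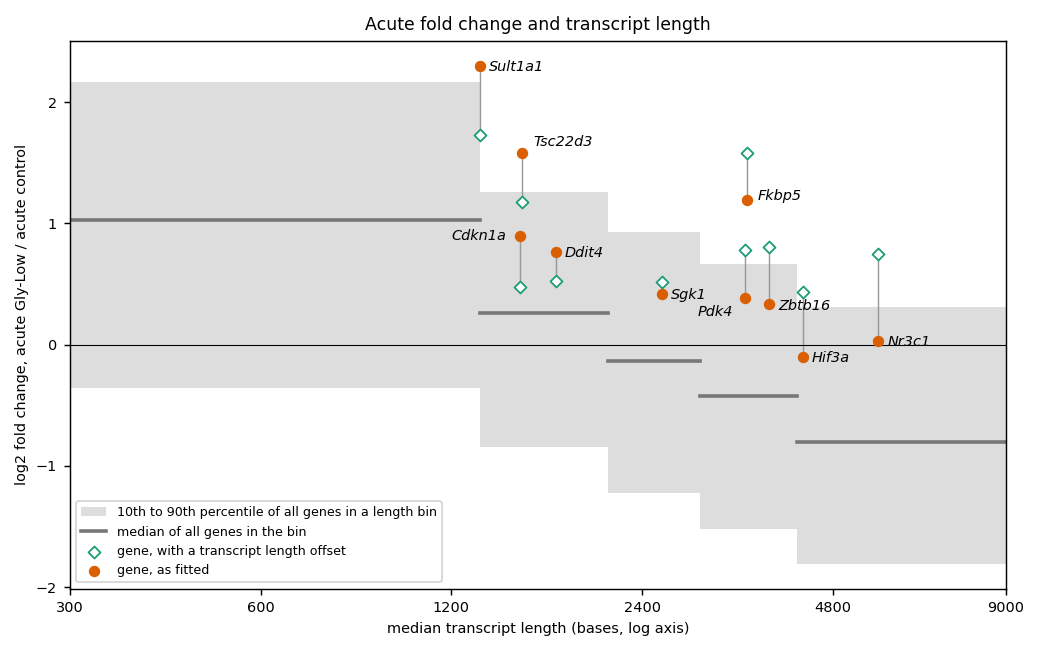
Log2 fold change of acute Gly-Low over acute control (vertical axis) against median transcript length in bases (log axis). Filled points are the 10 genes as fitted, open diamonds the same genes with a length offset, and grey bands the 10th to 90th percentile and median of all genes in 5 length bins; Fkbp5, at 1.19, stands above its band and the offset lifts it to 1.58.

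Counts in other lists of the pathway are read against the 27.8% of all genes tested that were higher and the 30.5% that were lower in acute Gly-Low. Of 20 further targets described for the receptor, 6 were higher and 3 lower, a share near the background for higher genes. Sdc4, a cell-surface proteoglycan, averaged 218 ± 26.1 CPM (SD, n = 4) in acute Gly-Low and 103 ± 13.7 CPM (SD, n = 5) in acute control, a log2 fold change of 1.10 ± 0.13, and Mt1, a metal-binding protein, stood at 1.40 ± 0.18. Dusp1, a phosphatase of stress kinases that the receptor induces in many tissues, averaged 14.5 ± 1.67 CPM in acute Gly-Low and 28.6 ± 8.82 CPM in acute control, at −0.97 ± 0.20, and the repressor Bcl6 was at −0.80 ± 0.31. The adjusted p of these 4 ran from 7.93e-06 to 0.0399.

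Of 20 chaperones and coregulators of the receptor, 4 were higher and 10 lower in acute Gly-Low, beside 27.8% higher and 30.5% lower over all genes. The coactivators Ncoa1 (−1.64 ± 0.16) and Ncoa2 (−1.26 ± 0.19) were lower, and the chaperone partners Bag1 (0.90 ± 0.12) and Ptges3 (0.70 ± 0.17) higher. Of 9 genes of steroid supply and the mineralocorticoid receptor, 7 were tested, 3 were higher and 1 was lower. Hsd11b1, which regenerates active corticosterone inside cells, averaged 42.3 ± 8.92 CPM in acute Gly-Low and 18.1 ± 3.00 CPM in acute control (1.25 ± 0.17, adjusted p = 2.19e-05). Abcb1b, an efflux pump that carries steroids, was also higher (0.81 ± 0.23). Nr3c2, the mineralocorticoid receptor, averaged 15.7 ± 1.60 CPM in acute Gly-Low and 32.7 ± 6.62 CPM in acute control (−1.04 ± 0.16, adjusted p = 8.39e-05).

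Among 12 peptides and receptors of the stress axis, 10 were tested, 3 were higher and 4 lower. Oxt (1.33 ± 0.30) and Avp (1.45 ± 0.42), the peptides of the magnocellular neurons, were higher, and the receptors Adcyap1r1 (−1.46 ± 0.15) and Crhr1 (−1.14 ± 0.29) lower. Of 17 paralogs of the 10 genes, 4 were higher and 5 lower, near the background of 27.8% and 30.5%. They included Sgk3 (1.76 ± 0.16) and Tsc22d4 (1.504 ± 0.143) among the higher, and Pdk2 (−1.18 ± 0.18) and Nr3c2 among the lower. Lists of p53, hypoxia and FOXO targets had members in each direction, as had all genes tested (27.8% higher and 30.5% lower). Of 14 p53 targets 6 were higher and 2 lower, with Ccng1 at 1.34 ± 0.15 and Bax at 1.202 ± 0.161. Of 14 hypoxia targets 4 were higher and 5 lower, with Bnip3 at 0.97 and Ndrg1 at −0.80. Of 12 tested FOXO targets 2 were higher and 7 lower, with Sesn1 at 0.66 and Insr at −1.45. Some of these named genes lie where length alone went with a direction. Mt1, Oxt, Avp, Bag1, Tsc22d4, Bax and Bnip3 fall in the bin of 56 to 1334 bases, where 61.6% of genes were higher. Ncoa1, Ncoa2, Nr3c2 and Insr fall in the bin from 4220.4 bases upward, where 60.8% were lower. Others went against their bin. Abcb1b, higher, falls in that same longest bin. Sgk3, Ccng1 and Sesn1, all higher, fall in the bin of 2966 to 4220.4 bases, where 13.2% were higher. Dusp1 and Adcyap1r1, both lower, fall in the bin of 1334 to 2117 bases, where 36.0% were higher. The part of transcript length in these list genes was not tested. All lists were chosen with earlier results of these data known.

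The age comparison sets old control against young control. None of the 10 genes passed by edgeR's quasi-likelihood test, 0 had an unadjusted p under 0.05, 0 passed by DESeq2 and 1 by limma-voom. Of all 18281 genes tested 6 did (0.0328%), all higher in old control, while 1663 had an unadjusted p under 0.05. Fkbp5 had 20.5, 18.4, 15.1 and 44.0 CPM in old control and 16.6, 10.04, 16.1 and 25.4 CPM in young control, a log2 fold change of 0.50 ± 0.34 (adjusted p = 0.728). Apart from old control 4 the groups lay within the same range. Tsc22d3 had 81.7, 125, 169 and 186 CPM in old control and 129, 157, 158 and 139 CPM in young control (−0.08 ± 0.29, adjusted p = 0.954), so that the young values lay inside the old ones. Cdkn1a, often used as a marker of senescent cells, had 8.60, 8.96, 14.5 and 23.2 CPM in old control and 14.7, 15.9, 21.4 and 16.8 CPM in young control. Old controls 1 to 3 were below every young library and old control 4 above them. Its log2 fold change was −0.35 ± 0.30 (adjusted p = 0.791), and it passed by limma-voom with sample weights (−0.73, adjusted p = 0.0495; 0.0495 to 0.992 over 20 alternatives).

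Nr3c1 averaged 172 ± 43.2 CPM in old control and 165 ± 16.4 CPM in young control (0.04 ± 0.20). Sgk1 had 52.0, 82.0, 92.5 and 229 CPM in old control and 49.8, 67.7, 74.2 and 114 CPM in young control (0.55 ± 0.52). Hif3a had 0.966, 0.918, 1.94 and 9.79 CPM in old control and 1.00, 0.234, 1.80 and 2.88 CPM in young control (1.15 ± 0.80, adjusted p = 0.736). The largest values of Sgk1, Hif3a and Fkbp5 were all in old control 4, and without that library the log2 fold change was −0.02 for Sgk1, −0.22 for Hif3a and 0.08 for Fkbp5. Zbtb16 had 4.48, 2.16, 1.61 and 14.1 CPM in old control and 0.878, 0, 3.22 and 8.83 CPM in young control (0.75 ± 1.03, adjusted p = 0.862), where a count of 0 in young control 2 allows up to 0.175 CPM (3 counts, counting error only). Without old control 4 the log2 fold change of Zbtb16 was −0.25, and that of Cdkn1a was −0.69 (adjusted p = 0.426). Sult1a1 averaged 14.5 ± 8.07 CPM in old control and 17.1 ± 7.68 CPM in young control (−0.27 ± 0.43), Ddit4 41.0 ± 14.2 CPM in old control and 49.9 ± 7.78 CPM in young control (−0.31 ± 0.24), and Pdk4 10.9 ± 1.24 CPM in old control and 11.1 ± 1.45 CPM in young control (−0.04 ± 0.22), with adjusted p from 0.756 to 0.97. The old and young libraries overlapped for all 10 genes. In each of the other lists of the pathway 0 genes passed.

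The old diet comparison asks what 5 months of Gly-Low changed in old mice, and it shares its old controls with the age comparison. None of the 10 genes passed by edgeR, DESeq2 or limma-voom, and 0 had an unadjusted p under 0.05. Of all 18281 genes 0 passed (0%) by edgeR, with 433 at an unadjusted p under 0.05 and 3 past the threshold by DESeq2. Tsc22d3 had 63.7, 142 and 131 CPM in old Gly-Low and 81.7, 125, 169 and 186 CPM in old control (−0.29 ± 0.31). Fkbp5 had 28.8, 33.2 and 35.4 CPM in old Gly-Low and 20.5, 18.4, 15.1 and 44.0 CPM in old control (0.44 ± 0.36). All 3 old Gly-Low libraries lay above old controls 1 to 3 and below old control 4. Sgk1 had 27.1, 147 and 115 CPM in old Gly-Low and 52.0, 82.0, 92.5 and 229 CPM in old control (−0.20 ± 0.57), and old Gly-Low 1 was the lowest of all 20 libraries. Sult1a1 had 13.3, 24.3 and 17.1 CPM in old Gly-Low and 8.08, 8.10, 16.9 and 24.9 CPM in old control (0.36 ± 0.47). Ddit4, with 26.1, 37.3 and 23.7 CPM in old Gly-Low and 33.8, 32.0, 36.0 and 62.1 CPM in old control, had the smallest p (−0.47 ± 0.26, unadjusted p = 0.0955). Nr3c1 averaged 186 ± 17.96 CPM in old Gly-Low and 172 ± 43.2 CPM in old control (0.13 ± 0.22), and Cdkn1a 9.89 ± 1.15 CPM in old Gly-Low and 13.8 ± 6.81 CPM in old control (−0.45 ± 0.33). Pdk4 averaged 11.2 ± 3.45 CPM in old Gly-Low and 10.9 ± 1.24 CPM in old control (0.06 ± 0.24). The scarcer Zbtb16 averaged 8.22 ± 4.27 CPM in old Gly-Low and 5.58 ± 5.80 CPM in old control (0.61 ± 1.09), and Hif3a 2.28 ± 0.212 CPM in old Gly-Low and 3.40 ± 4.29 CPM in old control (−0.53 ± 0.86). The groups overlapped for all 10 genes, and the adjusted p ran from 0.953 to 0.969. In each of the other pathway lists 0 genes passed.

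Whether the diet effect differed between old and acute mice was tested as an interaction, the old log2 fold change minus the acute one. Old and acute mice differ both in age and in time on the diet, and these cannot be told apart here. Of the 10 genes, 4 passed, all with a lower diet effect in old mice, where 36% of all 19061 genes tested passed in either direction and 19.2% as lower. The difference was −1.89 ± 0.36 for Tsc22d3 (adjusted p = 0.000539), −1.96 ± 0.59 for Sult1a1 (adjusted p = 0.0139), −1.36 ± 0.46 for Cdkn1a (adjusted p = 0.027) and −1.24 ± 0.38 for Ddit4 (adjusted p = 0.0148). Fkbp5, at −0.77 ± 0.49, did not pass (adjusted p = 0.234), but it passed at −2.02 with the length slope covariate (adjusted p = 0.0456) and at −1.54 without acute controls 2, 3 and 5 (adjusted p = 0.0389; 0.0389 to 0.578 over 27 alternatives). With the length offset only Tsc22d3 passed (−1.37, adjusted p = 0.00699), and with the length slope as a covariate none of the 4 did, Tsc22d3 being at −1.44 (adjusted p = 0.0721; 3.28e-06 to 0.0721 over 27 alternatives). Cdkn1a lost its call without acute Gly-Low 1 (adjusted p = 0.063), old control 4 (0.0646) or old Gly-Low 1 (0.0669; 0.00905 to 0.241 over 27 alternatives), and Sult1a1 without acute controls 2, 3 and 5 (0.102; 0.000932 to 0.598).

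The acute and the young controls are both young mice after 1 week on the control diet, 4 and 3 months old, and their comparison shows how far control libraries of separate arms lay apart. None of the 10 genes passed, where 5.29% of all genes tested did (0.923% higher and 4.37% lower in acute control). That background count is 1009 genes, and 0 without young control 2 or young control 3. Cdkn1a came nearest, with 3.90 to 12.1 CPM in acute control and 14.7 to 21.4 CPM in young control, groups that did not overlap (−0.92 ± 0.30, adjusted p = 0.0776). It passed by DESeq2 (adjusted p = 0.0353), by limma-voom (0.0178) and without young control 4 (0.0492; 0.0178 to 0.272 over 21 alternatives). Fkbp5 averaged 29.4 ± 12.8 CPM in acute control and 17.0 ± 6.33 CPM in young control (0.79 ± 0.33, adjusted p = 0.176), and passed by limma-voom (0.0392) and without young control 4 (0.0404; 0.0392 to 0.986). These 2 were the members with an unadjusted p under 0.05. Log2 fold changes of the other 8 ran from −0.42 ± 0.23 for Tsc22d3 to 0.85 ± 0.70 for Hif3a, with adjusted p from 0.327 to 0.908. Of the stress axis, Crh (−1.77 ± 0.29) and Oxt (−1.43 ± 0.34) were lower in acute control, as was the target Mt1 (−0.97 ± 0.24).

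The acute Gly-Low level of Cdkn1a, 16.7 ± 4.08 CPM, can be set beside that of the young controls, 17.2 ± 2.94 CPM, with acute control at 9.10 ± 3.12 CPM. For Tsc22d3 the acute Gly-Low mean of 323 ± 21.97 CPM stands apart from the means of the other 4 groups, which ran from 109 to 146 CPM. The same holds for Sult1a1, at 69.4 ± 6.24 CPM in acute Gly-Low and 14.3 to 18.2 CPM in the others, and for Fkbp5, at 66.3 ± 11.3 CPM in acute Gly-Low and 17.0 to 32.4 CPM in the others.

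Libraries of the same group also differed from each other, and some of the genes deviated together. Each library was expressed as its deviation in log2 CPM from its group mean, and the 45 pairs of the 10 genes were correlated over the 20 libraries, with two-sided permutation tests that shuffled libraries inside each group (100000 resamples, adjusted over 45 pairs). Of the 45 Pearson correlations 35 were positive and 11 passed an adjusted p of 0.05. Unadjusted permutation p of the 11 ran from 5e-05 to 0.00849. The correlation of Nr3c1 with its targets was below 0 for 8 of 9, and it passed for Zbtb16 (r = −0.58, rho = −0.67; adjusted p = 0.0163 and 0.0268, permutation). This rested on old control 4 and acute control 1: without them r was below 0 for 4 of 9, at 0.50 for Tsc22d3, 0.36 for Sult1a1, 0.29 for Pdk4, 0.22 for Sgk1 and 0.18 for Ddit4, and Zbtb16 no longer passed (r = −0.49, adjusted p = 0.457, permutation). Leaving out for each pair the 2 libraries farthest from the median of its first gene, with group means taken again, r of the 11 was −0.49 for Nr3c1 with Zbtb16 and 0.27 to 0.82 for the others, lowest for Cdkn1a with Ddit4 (0.27, adjusted p = 0.46, permutation) and Cdkn1a with Hif3a (0.31, adjusted p = 0.526, permutation).

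Tsc22d3 and Sgk1 had the highest correlation, with r = 0.86 (adjusted p = 0.0081, permutation) and Spearman's rho = 0.86 (adjusted p = 0.00972, permutation). Without the 2 libraries farthest from the median of Tsc22d3 and with group means taken again, r was 0.82 and the adjusted p was 0.0832 by permutation. Sgk1 was also correlated with Pdk4 (r = 0.75, rho = 0.70; adjusted p = 0.0153 and 0.0285, permutation) and Cdkn1a (r = 0.72, rho = 0.79; adjusted p = 0.0036 and 0.00292, permutation). A second group of high correlations joined Zbtb16, Hif3a and Fkbp5. Zbtb16 had r = 0.80 with Hif3a (rho = 0.79; adjusted p = 0.00709 and 0.0081, permutation) and r = 0.78 with Fkbp5 (rho = 0.80; adjusted p = 0.0018 and 0.0069, permutation), and Fkbp5 had r = 0.72 with Hif3a (rho = 0.73; adjusted p = 0.0284 and 0.018, permutation). Zbtb16 deviated most in young control 2 (−3.84, at a count of 0) and young control 4 (2.82). Without these 2 libraries and with group means taken again, Zbtb16 and Hif3a had r = 0.74 (adjusted p = 0.081, permutation). No fit of Zbtb16 with Fkbp5 left both of them out. Cdkn1a had r = 0.78 with Ddit4 (rho = 0.70; adjusted p = 0.0284 and 0.018, permutation), 0.69 with Tsc22d3 (rho = 0.78; adjusted p = 0.0018 and 0.00292, permutation) and 0.66 with Hif3a (rho = 0.60; adjusted p = 0.0321 and 0.0675, permutation), and Tsc22d3 had r = 0.68 with Pdk4 (rho = 0.61; adjusted p = 0.0347 and 0.0675, permutation). Tsc22d3 and Fkbp5 had r = 0.12 (adjusted p = 0.82, permutation).

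**Figure D4:**
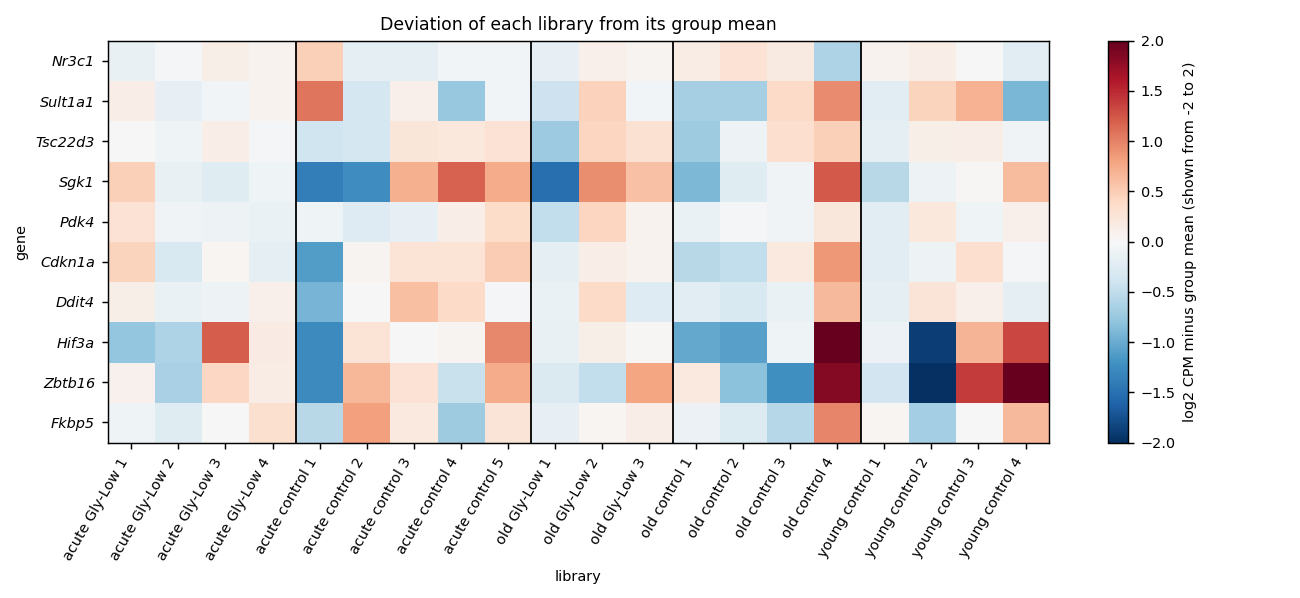
Deviation of log2 CPM from the group mean (colour, red above and blue below, shown from −2 to 2) for each gene in the 20 libraries. Old control 4 is above its group mean for 9 of 10 genes with Nr3c1 below, and acute control 1 is below for 8 of 10 with Nr3c1 and Sult1a1 above.

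The number of correlated pairs depended on a few libraries. Old control 4 had 9 of 10 genes above its group mean and Nr3c1 at 109 CPM, the lowest of all 20 libraries, and acute control 1 had 8 genes below and Nr3c1 at 234 CPM, the highest. Without these 2 libraries 2 of the 45 pairs passed, Tsc22d3 with Cdkn1a (r = 0.64, adjusted p = 0.0382, permutation) and Fkbp5 with Zbtb16 (r = 0.73, adjusted p = 0.0315, permutation). Tsc22d3 and Sgk1 then had r = 0.82 with an adjusted p of 0.0735 by permutation, and the correlation of Nr3c1 with Cdkn1a was −0.07, against −0.76 with all libraries (adjusted p = 0.0613, permutation). There were 3 pairs that passed without the 2 libraries farthest from the median of the first gene of each pair. With the length slope of each library removed, 15 pairs passed. Zbtb16 (r = 0.71), Fkbp5 (r = 0.53) and Hif3a (r = 0.52) moved with that slope within groups, as a description. None of 150 relations between the 10 genes and 15 summed lists of cell type markers passed after adjustment, the smallest adjusted p being 0.146 by permutation. The striatum list had r = 0.80 with Zbtb16, 0.63 with Fkbp5, 0.60 with Hif3a and −0.64 with Nr3c1 (unadjusted permutation p from 0.00097 to 0.0306). With the other genes its r ran from −0.45 to 0.24. The adjustment ran over 150 relations here and over 45 pairs above, and a relation that did not pass is not shown to be absent.

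**Figure D5:**
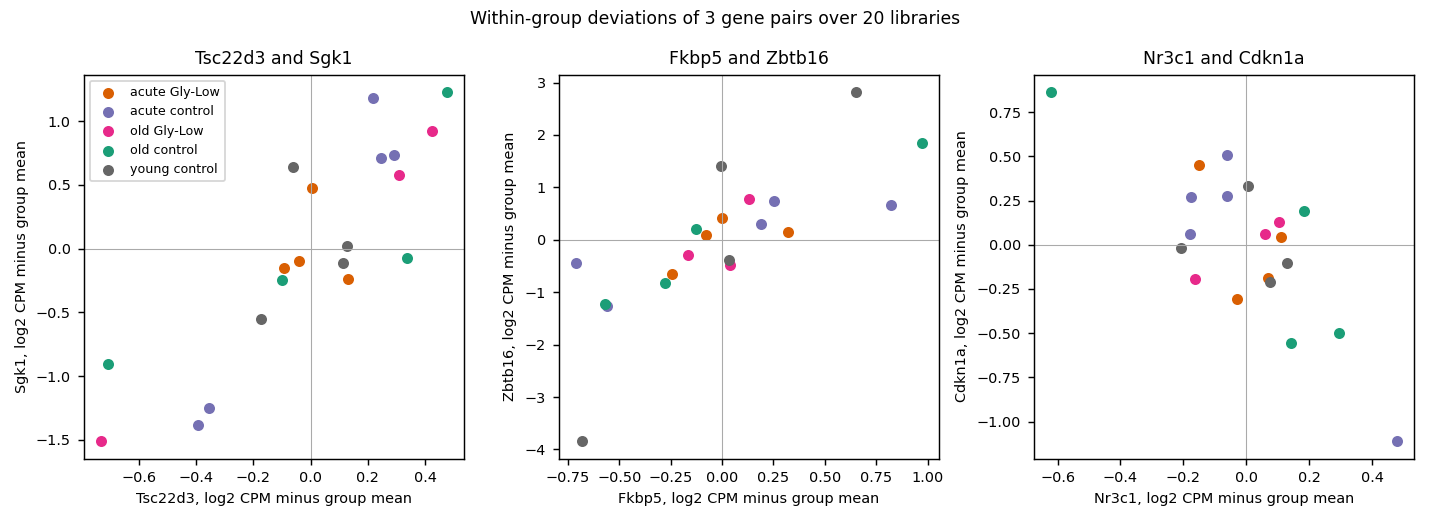
Deviations of log2 CPM from the group mean for 3 gene pairs, 1 point per library, coloured by group. Tsc22d3 and Sgk1 (r = 0.86) and Fkbp5 and Zbtb16 (r = 0.78) lie along rising lines, and the falling line of Nr3c1 and Cdkn1a (r = −0.76) rests on old control 4 and acute control 1 at its ends.

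As a description, the genes most like 4 of the targets in these deviations were found among 11246 protein-coding genes with a mean of at least 5 CPM. For Tsc22d3 they were F3 (r = 0.89), Mat2a (0.87) and Sgk1 (0.86), and for Sgk1 Arl4d (0.87), Tsc22d3 (0.86) and Bcas1 (0.79). For Fkbp5 they were Ttll4 (0.87), Zkscan7 (0.86) and Ccnd3 (0.85), and for Zbtb16 Zdhhc5 (0.96), Suds3 (0.94) and Tgm2 (0.93). All rest on the same 20 libraries.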

How the data were processed

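Gene counts of poly-A RNA from flash-frozen hypothalamus were used as deposited by the authors: a table of raw counts of 54532 genes, of which 54495 matched GENCODE on GRCm38. Tools listed in the submitters' processing notes are DESeq2 1.20.0, featureCounts 1.5.0-p3 and HISAT2 2.0.5, with the build GRCm38. Their roles and settings were not stated in the labels. Per the labels' protocols the libraries are not directional. Total counts were 15848372 to 27399753. A value column that matches no sample, 1 in all, was not used, and no columns were identical.

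The 10 genes and all lists were chosen with earlier results of these data known. Counts were filtered with filterByExpr, scaled by TMM and tested with edgeR 4.0.16 (quasi-likelihood, R 4.3.3), with Benjamini-Hochberg adjustment over all genes tested and a threshold of 0.05. The acute comparison was fitted on its own arm, the age and old diet comparisons on theirs, and the interaction and the young groups on all 20 libraries. The fits were tested on simulated counts, drawn independently for each gene and library. Those counts held no shift with transcript length, so that test does not cover the shift seen in these libraries. Log2 CPM used a prior count of 2. Within-group correlations used 100000 permutations within groups (20000 for alternatives). The length offset followed the median log2 CPM deviation of each library over 40 length bins. Promoter windows are from RefSeq, GRCm38.p6.

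Alternatives were DESeq2 1.42.0, limma-voom (limma 3.58.1), no filter, a replicate block, the length offset, the length slope as a covariate, other sets of libraries and leaving out each replicate. Leaving out old control 4 and acute control 1, and relating the genes to 15 marker lists, were chosen after seeing the data. Genes named are the 10, up to 2 per direction with the smallest p in each other list, and the 3 most like each of 4 targets. Titles give the replicate numbers. In the old diet comparison same-numbered libraries had deviations correlated at 0.417, 0.272 and 0.253, although 0 of 3 correlated best with its own number. The numbers in the old Gly-Low column headings also differ from the titles. No main fit used the numbers as pairs, and the replicate block was run as an alternative only.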

Additional observations from a re-analysis of the deposited data

Results flagged for a closer look

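Dixon's test of the highest and lowest library was applied to the 10 genes in the 4 groups of 4 or 5 libraries, 40 groups of values. It picked out 5 of the 40. Chance picks about 1 in 20 only for independent, normally distributed values. These are unlogged CPM of genes of which some deviated together, so the 5 do not measure an excess over chance. Nr3c1 was at 234.3 CPM in acute control 1, above the other 4 acute controls, and Sgk1 at 208.1 CPM and Pdk4 at 16.44 CPM in acute Gly-Low 1, each above the other 3 of its group. Ddit4 was at 62.09 CPM and Hif3a at 9.794 CPM in old control 4, each above the other old controls.

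The diet effect differed between old and acute mice for 4 of the 10 genes by the interaction in edgeR's quasi-likelihood fit. Age and time on the diet cannot be told apart in this interaction. Of all 19061 genes tested 36% passed in either direction, a share near that of the 10. All 4 passed as lower, as did 19.2% of all genes tested. The old minus the acute log2 fold change was −1.885 for Tsc22d3 (adjusted p = 0.000539), −1.957 for Sult1a1 (adjusted p = 0.0139), −1.361 for Cdkn1a (adjusted p = 0.027) and −1.242 for Ddit4 (adjusted p = 0.0148). Over 27 alternatives these passed in 26, 24, 21 and 25, with adjusted p up to 0.0721, 0.598, 0.241 and 0.23.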

How the results depend on the processing

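Of 1070 values of single genes over 36 settings, 971 kept their direction and side of the threshold, 17 lost and 14 gained a call, 68 changed sign with neither value past it, and 0 reversed. Of all members, those called in the acute comparison were 5 (5 to 6 leaving out each replicate). With the length slope covariate 3 passed, Tsc22d3, Fkbp5 and Zbtb16, while Sult1a1, Cdkn1a and Ddit4 lost their calls. The length slopes of acute Gly-Low and acute control did not overlap, so folds fitted with that covariate are extrapolated between them. With the length offset Cdkn1a and Ddit4 lost their calls, and Nr3c1 and Pdk4 gained one. In the age comparison 0 became 1 by limma-voom (0 to 0), and in the old diet comparison 0 stayed 0. Between the young groups 0 became 1 by DESeq2, 2 by limma-voom and 0 to 2 leaving out each replicate (2 without young control 4). For the interaction 4 became 1 with the length offset and 1 with the length slope covariate, where the 1 is Fkbp5 and none of the 4 passed (3 to 4 leaving out each replicate). Of all pairs, 11 became 3 without the 2 farthest libraries and 2 without old control 4 and acute control 1. The replicate block changed no call of the 10 genes (5, 0, 0, 0 and 4 called). The cause of these changes was not tested.

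Counts of called genes over all genes moved more. In the acute comparison 10005 became 3807 with the length slope covariate (9179 to 10794 leaving out each replicate). In the age comparison 6 became 388 by DESeq2, 3920 by limma-voom, 11 with no filter, 19 with the length offset, 413 with the length slope covariate, 120 in a fit of all 20 libraries, 2 without young control 2 and old control 3, and 0 with only the groups compared. In the old diet comparison 0 became 3 by DESeq2. Between the young groups 1009 became 1729 by DESeq2, 6068 by limma-voom, 241 with the length offset, 402 without young control 2 and old control 3, 3 with only the groups compared, 0 with the replicate block, the length slope covariate or without acute controls 2, 3 and 5, and 0 to 3957 leaving out each replicate, highest without young control 4. For the interaction 6859 became 4424 with the length offset, 1718 with the length slope covariate and 4506 without acute controls 2, 3 and 5. Same-numbered libraries correlated at −0.0422 to 0.00164 in the acute comparison, −0.0495 to 0.600 in the age comparison and −0.0422 to 0.00515 between the young groups. In the age comparison old controls 2 and 4 each correlated best with the young control of their own number (0.269 and 0.600). The replicate numbers were not taken as pairs in the main fits of these comparisons either. A search of 10 kb around each start was not run.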
